A study of Mus musculus with 4 samples.

Results

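Genes that identify monocytes, macrophages and dendritic cells were followed in RNA from tumor-induced myeloid-derived suppressor cells (MDSCs), the neutrophil-like and monocyte-like suppressor cells of tumor-bearing hosts. The set holds 37 genes, chosen by symbol as markers of these cell types, with earlier results of these data known, out of 55416 gene rows in the count table, and all 37 had a row. They fall into 8 monocyte genes, 9 macrophage genes, 5 genes of the phagocyte lysosome, 4 genes linked to peritoneal macrophages, 9 dendritic cell genes and 2 further surface genes. Mice of both genotypes received EL4 cells, a T cell lymphoma line, and MDSCs were sorted by flow cytometry from their ascitic fluid at day 14. WT mice gave 2 libraries, and mice with a knockout of Sphk2, which encodes a kinase that makes sphingosine 1-phosphate, gave 2 libraries (Sphk2 KO). The sources used here do not give strain, age, sex, the design of the knockout allele or the number of mice behind a library. The p-values therefore measure the spread between these libraries, which may be technical.

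Poly(A) RNA libraries held 14087613 to 24685576 counts, and levels are given as CPM, counts scaled to TMM-adjusted library size, where 1 count equals 0.0445 to 0.0723 CPM. Sphk2 itself stood at 54.9 and 53.7 CPM in WT and at 4.07 and 4.45 CPM in Sphk2 KO. The sorted cells carried the MDSC markers Itgam (181 to 258 CPM), Ly6g (47.1 to 113 CPM) and Ly6c2 (71.9 to 128 CPM), with S100a8 at 3957 to 9343 CPM, while Ly6c1 was low (3.07 to 3.47 CPM). Of 15 neutrophil markers, 10 (66.7%, against 20.4% of all tested genes) had both Sphk2 KO libraries above both WT libraries. The reverse held in 0 (against 22.7%). The 15 summed to 25408 and 32928 CPM in WT against 39257 and 44446 CPM in Sphk2 KO. Markers of B cells summed to 1574 and 1416 CPM in WT and to 1405 and 714 CPM in Sphk2 KO, and without Ighm, the most abundant of them, to 829 and 837 against 621 and 396 CPM. Those of T cells or EL4 summed to 59.8 and 47.5 CPM against 32.9 and 29.8 CPM. No marker of these 3 lists was at 0 in any library. The 7 erythroid markers summed to 65.1 and 194 CPM in WT and 332 and 581 CPM in Sphk2 KO, with a median difference of 1.64 in log2. All 7 (against 20.8% of all tested genes) were lowest in WT replicate 1 and highest in Sphk2 KO replicate 2. The 9 mesothelial or fibroblast markers summed to 7.01 and 18.4 CPM in WT and 3.92 and 4 CPM in Sphk2 KO. Col1a2 gave -3.83 and Col3a1 -3.66 in log2, and Msln, Lrrn4 and Krt19 were at 0 in 1 or more libraries. At an adjusted p under 0.05 edgeR called 0 of the 4 tested, with a median SE of 0.659. DESeq2 called 2 of the list (against 0.445% of all genes). In bulk RNA, fewer cells of a type and less RNA per cell cannot be told apart.

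Classical monocytes leave the bone marrow, enter inflamed tissue and carry genes for matrix and coagulation proteins such as fibronectin, versican and factor XIII. Resident macrophages instead express complement C1q, the mannose receptor and phagocytic receptors such as MERTK, and those of the peritoneal cavity depend on the transcription factor GATA6. Conventional dendritic cells present antigen to T cells and are marked by Zbtb46, with Batf3, Xcr1 and Clec9a in the cross-presenting subset. Plasmacytoid dendritic cells depend on the transcription factor encoded by Tcf4 and carry Siglech.

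Levels spread widely within each kind of gene, and several defining genes of peritoneal macrophages and dendritic cells were barely detected. Of the 37 genes, 10 had a mean of at least 100 CPM over the 4 libraries, 28 a mean of at least 5 CPM and 4 a mean under 1 CPM. Per kilobase of exon (GENCODE M21 lengths), the highest mean levels were those of Lyz2 at 1469.8, Ccl6 at 290.5 and Ctsd at 191 CPM per kb. Fn1 stood at 50, Apobec1 at 39.4, Adgre1 at 27.8, F13a1 at 22.3, C1qb at 6.42, Mrc1 at 1.62 and Zbtb46 at 0.367 CPM per kb. The lowest 4, at 0.126 CPM per kb or less, were Siglech, Timd4, Xcr1 and Gata6, and these 4 did not pass the count filter of the test.

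**Figure D1:**
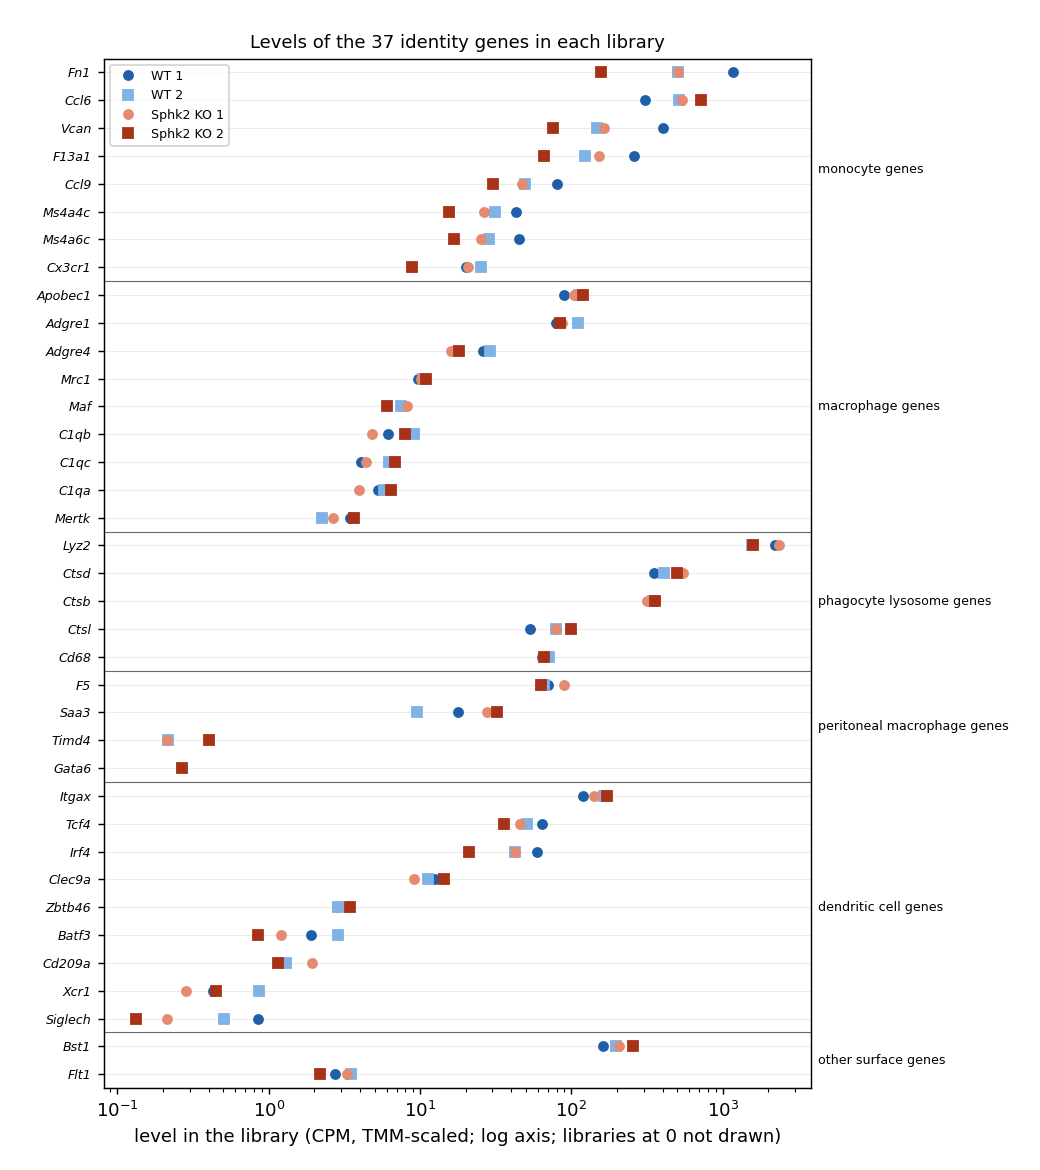
Level of each of the 37 genes in each library, as TMM-scaled CPM on a log axis, with rows grouped by kind of gene and ordered by mean level within a group. Points are single libraries (circles replicate 1, squares replicate 2), and values of 0 are not drawn. Fn1, Vcan and F13a1 run from WT replicate 1 at the high end to Sphk2 KO replicate 2 at the low end, whereas the points of Mrc1, Cd68 and Ctsb nearly coincide.

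Between the genotypes, 0 of the 33 tested members were called (edgeR quasi-likelihood test with Benjamini-Hochberg adjustment over all 16566 tested genes, adjusted p under 0.05), where 0.109% of all genes were called. Their edgeR adjusted p ranged from 0.373 to 0.995. At an unadjusted p under 0.05, 8 members had lower values in Sphk2 KO (24.2%, against 7.47% of all tested genes) and 2 had higher values (6.06%, against 3.06%). The 8 were Ms4a6c, Ms4a4c, Fn1, Vcan, Ccl9, Adgre4, Batf3 and Tcf4, and the 2 were Saa3 and Ctsd. DESeq2 called 1 of 33 members with an adjusted p, Saa3, against 0.445% of all genes. Both Sphk2 KO libraries lay below both WT libraries in 7 members (21.2%, against 22.7% of all tested genes) and above them in 6 (18.2%, against 20.4%), shares near the background, and in 13 and 4 members with library size alone as the scale (against 31.8% and 9.6% of all tested genes). The median log2 fold change was -0.07 over the 33 tested members and 0.00 over all tested genes.

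**Figure D2:**
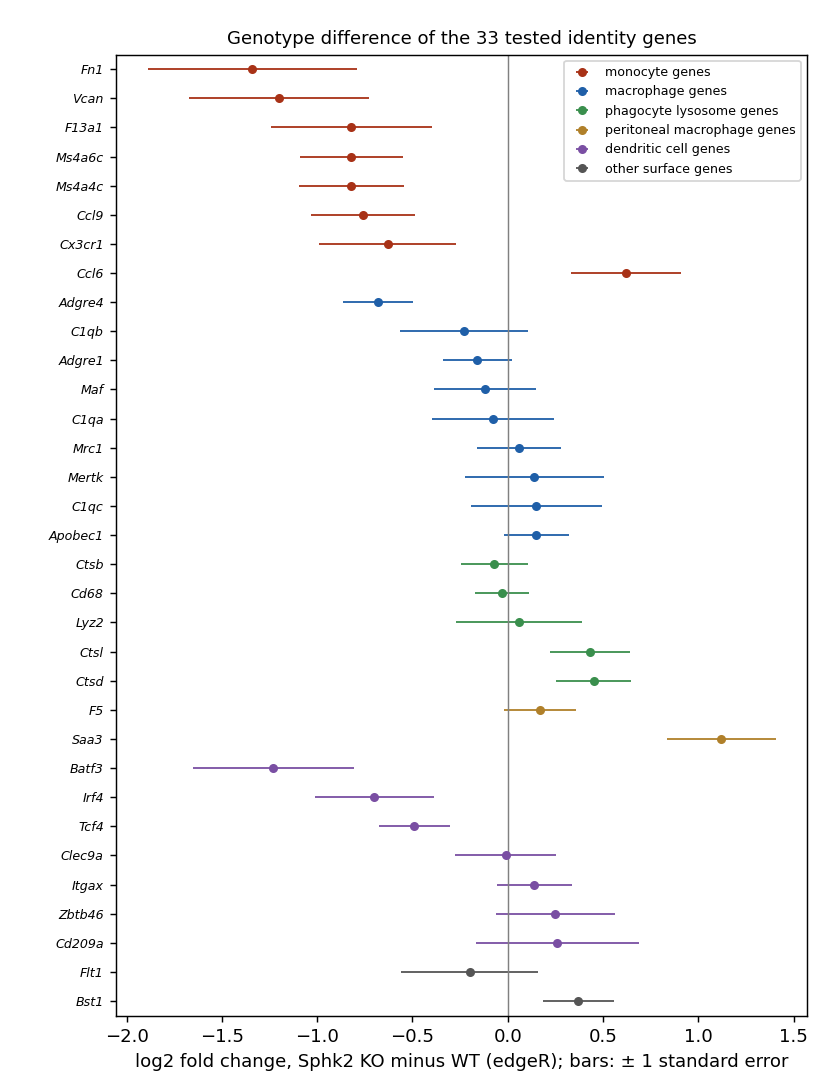
Log2 fold change of the 33 tested genes, Sphk2 KO minus WT, from edgeR, with bars of ± 1 standard error and colors by kind of gene. Of the monocyte genes 7 lie below 0, down to -1.34 for Fn1, and Ccl6 lies above it, while 8 of the 9 macrophage genes lie between -0.23 and 0.15.

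The monocyte genes had the lowest median difference of the 6 kinds of gene, and their values lay farthest apart between WT replicate 1 and Sphk2 KO replicate 2, except in Cx3cr1. Of the 8, 7 had negative log2 fold changes and 1 a positive value, with a median of -0.82. At an unadjusted edgeR p under 0.05, 5 were lower in Sphk2 KO (62.5%, against 7.47% of all tested genes) and 0 higher (against 3.06%). Fn1 (ENSMUSG00000026193, chromosome 1), which encodes fibronectin, had 1172 and 504 CPM in WT and 505 and 157 CPM in Sphk2 KO. WT replicate 2 and Sphk2 KO replicate 1 were alike and the genotypes overlapped. Its means were 838 ± 472 and 331 ± 246 CPM (SD, n = 2 each). The edgeR estimate was -1.34 in log2 (Sphk2 KO minus WT, as throughout), with SE 0.548 and adjusted p = 0.454.

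Vcan, the gene for the matrix proteoglycan versican, had 401 and 148 CPM in WT and 164 and 75.6 CPM in Sphk2 KO (log2 difference -1.20 ± 0.473 SE, edgeR adjusted p = 0.442). F13a1, the A subunit of coagulation factor XIII, had 260.1 and 123 CPM in WT and 151 and 66.1 CPM in Sphk2 KO (log2 difference -0.82 ± 0.421 SE). In both genes Sphk2 KO replicate 1 lay above WT replicate 2, so the genotypes overlapped. The fibroblast markers, other sources of matrix genes, summed highest in WT replicate 2, where Fn1 and Vcan were not highest, and their part in these values was not tested.

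The membrane-spanning family genes Ms4a6c and Ms4a4c, both on chromosome 19, had nearly the same profile as each other and no overlap between genotypes. Ms4a6c had 45.1 and 28.6 CPM in WT and 25.1 and 16.8 CPM in Sphk2 KO (log2 difference -0.82 ± 0.271 SE, edgeR adjusted p = 0.414). Ms4a4c had 43 and 31.1 CPM in WT and 26.6 and 15.6 CPM in Sphk2 KO (log2 difference -0.82 ± 0.275 SE, edgeR adjusted p = 0.423). Of the 75-base sequences of Ms4a6c 3.23% also occur in Ms4a6b or Prdm11, and of those of Ms4a4c 3.94% in Ms4a4b. Ms4a6c also overlaps BE692007 on the opposite strand (11.3 to 22.9 CPM), as F13a1 does Gm30489 (1.42 to 4.25 CPM), so these levels are uncertain to that extent.

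Cx3cr1, the fractalkine receptor that is highest on nonclassical monocytes, followed another order. It had 20 and 25.1 CPM in WT and 20.6 and 8.81 CPM in Sphk2 KO, so that only Sphk2 KO replicate 2 stood apart (log2 difference -0.63 ± 0.359 SE, edgeR adjusted p = 0.556). The log2 fold change was -0.12 without that library and -1.36 without Sphk2 KO replicate 1.

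The CC chemokine genes Ccl9 and Ccl6 both lie on chromosome 11 and encode ligands of the receptor CCR1, yet their values went in opposite directions. Ccl9 had 80.7 and 49.3 CPM in WT and 46.8 and 30.2 CPM in Sphk2 KO (log2 difference -0.76 ± 0.274 SE, edgeR adjusted p = 0.425). Ccl6 had 307 and 517 CPM in WT and 540.0 and 722 CPM in Sphk2 KO (log2 difference 0.62 ± 0.286 SE, edgeR adjusted p = 0.489). Neither gene overlapped between genotypes, although WT replicate 2 and Sphk2 KO replicate 1 lay close together in both. The library with the most Ccl9, WT replicate 1, had the least Ccl6, and Sphk2 KO replicate 2 had the least Ccl9 and the most Ccl6.

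The sequences before the starts of 4 monocyte genes are shown because the levels of F13a1, Ms4a4c and Ccl9 followed similar orders over the libraries and those of Ccl6 the reverse; they were picked after their values were seen. Each is the 250 bases upstream of the annotated start, 5′ to 3′ on the gene's strand, from RefSeq on GRCm38.p6, where 29 of the 37 members had an entry. Capitals mark matches on either strand to GAGGAA, a core recognized by the myeloid factor PU.1, or to TTGCNNAA, a form of the C/EBP site. F13a1 (annotated start 1 of 2) lies at chr13:37050245-37050494 on the minus strand, Ms4a4c at chr19:11407411-11407660 on the plus strand, Ccl9 at chr11:83578637-83578886 and Ccl6 at chr11:83593088-83593337, both on the minus strand.
F13a1: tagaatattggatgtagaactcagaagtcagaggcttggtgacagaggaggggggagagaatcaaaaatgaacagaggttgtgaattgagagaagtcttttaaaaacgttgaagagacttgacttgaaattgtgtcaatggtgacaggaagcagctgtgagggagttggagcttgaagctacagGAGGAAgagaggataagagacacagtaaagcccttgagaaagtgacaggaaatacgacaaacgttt
Ms4a4c: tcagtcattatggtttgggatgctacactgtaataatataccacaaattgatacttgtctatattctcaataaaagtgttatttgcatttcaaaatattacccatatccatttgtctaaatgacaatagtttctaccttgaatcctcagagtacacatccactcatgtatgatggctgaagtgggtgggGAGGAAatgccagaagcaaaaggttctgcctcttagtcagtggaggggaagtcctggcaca
Ccl9: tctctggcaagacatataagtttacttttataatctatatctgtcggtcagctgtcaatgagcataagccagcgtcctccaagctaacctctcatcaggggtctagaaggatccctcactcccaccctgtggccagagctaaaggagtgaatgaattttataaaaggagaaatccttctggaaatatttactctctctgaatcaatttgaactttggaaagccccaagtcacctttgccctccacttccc
Ccl6: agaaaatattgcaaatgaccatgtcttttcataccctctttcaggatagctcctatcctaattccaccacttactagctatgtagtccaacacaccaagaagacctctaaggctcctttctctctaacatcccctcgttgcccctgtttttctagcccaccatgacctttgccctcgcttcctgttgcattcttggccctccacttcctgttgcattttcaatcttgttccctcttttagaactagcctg

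F13a1 and Ms4a4c each held 1 match to GAGGAA, starting 66 and 61 bases before the start, and neither chemokine gene held a match to either motif. The window of Ccl9 held a match to TGANTCA, an AP-1 site, and 3 matches to TATAAA, of which 2 overlap, while the Ccl6 window held none of the 4 motifs. Vcan, Ms4a6c and the other annotated start of F13a1 held no match to any of them. Among 32851 such windows of all genes, 23.3% held GAGGAA, 9.56% TTGCNNAA, 6.75% TGANTCA and 12.4% TATAAA on either strand. Of the 29 members with a window, 9 held GAGGAA, 5 TTGCNNAA, 4 TGANTCA and 7 TATAAA. Members were counted on their first listed window alone, whereas the shares over all windows include genes with several starts.

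The replicates of a genotype differed widely in F13a1, Ms4a6c, Ms4a4c, Fn1, Vcan and Ccl9. These 6 genes, grouped after their values were seen, were highest in WT replicate 1 and lowest in Sphk2 KO replicate 2. WT replicate 1 exceeded WT replicate 2 by 1.38-fold to 2.71-fold, and Sphk2 KO replicate 1 exceeded Sphk2 KO replicate 2 by 1.5-fold to 3.22-fold. By contrast, the ratio of WT replicate 2 to Sphk2 KO replicate 1 was 0.812 to 1.17. WT replicate 1 and Sphk2 KO replicate 2 differed by 2.67-fold to 7.47-fold. Irf4 and Tcf4 shared these extremes, which makes 8 of 33 tested members (24.2%), close to the 23.4% of all tested genes. By kind of gene, these were 6 of the 8 monocyte genes (75%) and 2 of the 7 tested dendritic cell genes (28.6%). The macrophage and lysosome genes held 0. The reverse, with Sphk2 KO replicate 2 highest and WT replicate 1 lowest, held in 8 members (24.2%, against 20.8%).

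**Figure D3:**
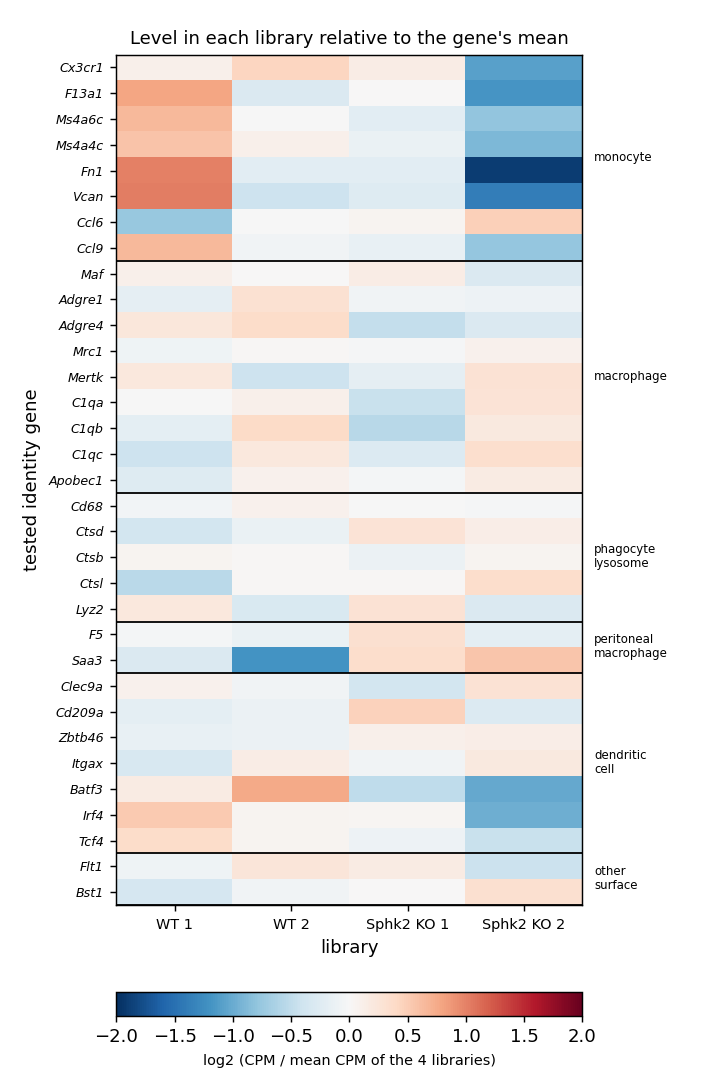
Level of the 33 tested genes in each library as log2 of its CPM over the gene's mean CPM of the 4 libraries, with red above and blue below the mean. WT replicate 1 is red and Sphk2 KO replicate 2 blue in Fn1, Vcan, F13a1, Ms4a6c, Ms4a4c and Ccl9, and Ccl6 shows the opposite, while the rows of most macrophage genes are pale.

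The count of called members depended on which library was left out, and in these fits the lone library of a genotype is assumed to vary like the other genotype. Without WT replicate 2, 9 of 34 members were called (against 5.93% of all genes): F13a1, Ms4a6c, Ms4a4c, Fn1, Vcan, Ccl9 and Irf4 lower in Sphk2 KO, Ccl6 and Ctsl higher. Without Sphk2 KO replicate 1, 9 of 35 were called (against 3.57%): F13a1, Ms4a6c, Ms4a4c, Fn1, Vcan, Ccl9, Irf4 and Cx3cr1 lower, and Saa3 higher. Without WT replicate 1 only Saa3 was called, of 34 (against 0.319%). Without Sphk2 KO replicate 2 edgeR called 0 of 35 (against 0.338%), and 3 had an unadjusted p under 0.05. The median of the monocyte genes was -0.42 when WT replicate 1 was left out and -0.47 when Sphk2 KO replicate 2 was, against -1.08 and -1.31 when WT replicate 2 or Sphk2 KO replicate 1 was left out. With no count filter, edgeR called 8 of 37 members (against 2.07% of all genes), namely F13a1, Ms4a6c, Ms4a4c, Fn1, Vcan, Ccl9 and Irf4 lower and Saa3 higher.

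The macrophage genes showed little difference between genotypes, apart from Adgre4. Of the 9, 4 had positive and 5 negative log2 fold changes, with a median of -0.08. Adgre4, an adhesion receptor of the EGF-TM7 family found on monocytes and macrophages, had 26.1 and 28.8 CPM in WT and 16 and 18.2 CPM in Sphk2 KO. Its replicates lay close together and its genotypes did not overlap, with means of 27.4 ± 1.86 and 17.1 ± 1.53 CPM (SD, n = 2 each; log2 difference -0.68 ± 0.182 SE, edgeR adjusted p = 0.392). Leaving out a library kept it between -0.77 and -0.60, with no call.

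Adgre1, the related adhesion receptor used as the general macrophage marker of the mouse, had 79.2 and 110.5 CPM in WT and 86 and 83.9 CPM in Sphk2 KO (log2 difference -0.16 ± 0.182 SE). Apobec1, a cytidine deaminase that edits RNA in macrophages, had 89.1 and 113 CPM in WT and 104 and 119.8 CPM in Sphk2 KO (0.15 ± 0.17 SE). In these 2 genes the spread within WT was larger than the difference between genotype means.

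Mrc1, the mannose receptor, had 9.72 and 10.5 CPM in WT and 10.1 and 10.9 CPM in Sphk2 KO, the flattest profile among the macrophage genes. Maf, a transcription factor of resident macrophages, had 7.96 and 7.44 CPM in WT and 8.2 and 6.09 CPM in Sphk2 KO. Mertk, the receptor that clears dying cells, was counted 65 and 31 times in WT and 37 and 82 times in Sphk2 KO, or 2.24 to 3.65 CPM over all libraries. None of these 3 separated the genotypes, with log2 fold changes of 0.06 for Mrc1, -0.12 for Maf and 0.14 for Mertk.

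The 3 genes of complement C1q, whose chains assemble into the recognition molecule of the classical pathway, were low and differed more between libraries of a genotype than between genotypes. C1qa had 5.31 and 5.78 CPM in WT and 3.92 and 6.45 CPM in Sphk2 KO. C1qb had 6.11 and 9.1 CPM in WT and 4.78 and 7.96 CPM in Sphk2 KO. C1qc had 4.04 and 6.21 CPM in WT and 4.42 and 6.81 CPM in Sphk2 KO. In each gene replicate 2 was above replicate 1 in both genotypes, the genotypes overlapped, and the log2 fold changes were -0.08, -0.23 and 0.15 with standard errors of 0.32 to 0.343.

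Among the lysosome genes of phagocytes, the cathepsins D and L had higher values in Sphk2 KO, and Cd68, Ctsb and Lyz2 did not separate the genotypes. Ctsd, an aspartic protease, had 350.1 and 409 CPM in WT and 544 and 495 CPM in Sphk2 KO (log2 difference 0.45 ± 0.196 SE, edgeR adjusted p = 0.47). Ctsl, a cysteine protease, had 53.4 and 79.3 CPM in WT and 79.4 and 98.7 CPM in Sphk2 KO (0.43 ± 0.211 SE, edgeR adjusted p = 0.509). The groups of both genes did not overlap, though WT replicate 2 and Sphk2 KO replicate 1 differed little in Ctsl.

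Ctsb, another cysteine protease, had 355 and 347 CPM in WT and 315 and 355 CPM in Sphk2 KO (log2 difference -0.07 ± 0.178 SE), and its exons overlap those of Fdft1 on the opposite strand. Cd68, the lysosomal glycoprotein that marks phagocytes, had 63.9 and 70.7 CPM in WT and 66.1 and 65.7 CPM in Sphk2 KO (-0.03 ± 0.143 SE). Lyz2, the lysozyme of myeloid cells and the most abundant member, had 2227 and 1567 CPM in WT and 2355 and 1589 CPM in Sphk2 KO. In Lyz2 replicate 1 was the higher library of each genotype and the log2 fold change was 0.06 (SE 0.331). Of the 75-base sequences of Ctsd, 35.8% also belong to Gm49369, which had 1 count in all, 5.96% of those of Lyz2 belong to Lyz1, and 5.61% of those of Ctsl occur in other genes.

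Of the genes linked to peritoneal macrophages, the defining ones were at or near 0, although the cells came from ascitic fluid. Gata6 had 0 counts in both WT libraries and in Sphk2 KO replicate 1 and 6 counts in Sphk2 KO replicate 2, where 0 counts over the WT libraries allow up to 0.0918 CPM (a limit of 3 counts, counting error only). Timd4, a receptor for phosphatidylserine on resident macrophages, was counted 4 and 3 times in WT and 3 and 9 times in Sphk2 KO. Against these, F5, the coagulation factor V gene, was well expressed at 70.1 and 65.7 CPM in WT and 89.8 and 63 CPM in Sphk2 KO (log2 difference 0.17 ± 0.189 SE), with overlapping genotypes.

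Saa3, an acute-phase serum amyloid A gene made by activated macrophages, had the largest positive value of the 33 tested members. It had 17.9 and 9.54 CPM in WT and 27.8 and 32.2 CPM in Sphk2 KO, with no overlap. Its means were 13.7 ± 5.91 and 30 ± 3.15 CPM (SD, n = 2 each). The edgeR estimate was 1.12 in log2, with SE 0.285 and adjusted p = 0.373, and DESeq2 gave an adjusted p of 0.0488. It was 1.64 without WT replicate 1 (edgeR adjusted p = 0.00481), 1.22 without Sphk2 KO replicate 1 (0.00304), 1.02 without Sphk2 KO replicate 2 (0.179) and 0.76 without WT replicate 2 (0.0745), the last 2 without a call. The part of the neutrophil markers, which were higher in the same libraries, was not tested. Saa3 lies on chromosome 7, as do Sphk2 itself and the members Ctsd, Itgax and Siglech. The part of this shared position in the Saa3 values was not tested.

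The upstream 250 bases of Saa3, the single member that DESeq2 called, lie at chr7:46715677-46715926 on the minus strand (RefSeq, GRCm38.p6), with a match to the C/EBP motif TTGCNNAA, read on the opposite strand, in capitals.
Saa3: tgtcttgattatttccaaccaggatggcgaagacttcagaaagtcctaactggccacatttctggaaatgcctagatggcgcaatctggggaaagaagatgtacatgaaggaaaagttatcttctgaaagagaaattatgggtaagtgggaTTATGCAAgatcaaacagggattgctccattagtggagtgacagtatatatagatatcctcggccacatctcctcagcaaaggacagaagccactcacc
The match starts 99 bases before the annotated start, and the window held none of the other motifs searched. Of the 75-base sequences of Saa3, 1.13% also occur in other genes.

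Of the genes that define conventional dendritic cells, Xcr1, Zbtb46, Cd209a and Batf3 had under 5 CPM in every library. Xcr1, a chemokine receptor of the cross-presenting subset, was counted 8 and 12 times in WT and 4 and 10 times in Sphk2 KO. Pooled over libraries and scaled to depth, Sphk2 KO stood to WT as 0.627, with an exact 95% binomial interval of 0.293 to 1.3. Zbtb46, the transcription factor of conventional dendritic cells, had 2.81 and 2.89 CPM in WT and 3.35 and 3.43 CPM in Sphk2 KO (log2 difference 0.25 ± 0.311 SE). Cd209a, a lectin of monocyte-derived dendritic cells, was counted 23 and 18 times in WT and 27 and 26 times in Sphk2 KO. For Xcr1 no difference was detectable at this depth. Zbtb46 was slightly higher in both Sphk2 KO libraries, but its difference, like that of Cd209a, was smaller than its standard error.

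Batf3, the transcription factor of the cross-presenting subset, was counted 36 and 40 times in WT and 17 and 19 times in Sphk2 KO. Both Sphk2 KO libraries were lower, at 1.21 and 0.845 CPM against 1.91 and 2.89 CPM (log2 difference -1.23 ± 0.423 SE, edgeR adjusted p = 0.425). Clec9a, the receptor by which these cells sense dead cells, had 12.5 and 11.3 CPM in WT and 9.13 and 14.4 CPM in Sphk2 KO, with overlapping genotypes. Clec9a shares exons and 3.45% of its 75-base sequences with Clec1b, which had 11.2 to 14.4 CPM, so its level is uncertain. Itgax, the CD11c integrin chain that myeloid cells other than dendritic cells also carry, had 119 and 165 CPM in WT and 142 and 171 CPM in Sphk2 KO (log2 difference 0.14 ± 0.198 SE), and 6.04% of its 75-base sequences occur in Itgad.

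Siglech and Tcf4 of plasmacytoid dendritic cells and Irf4 were lower in both Sphk2 KO libraries than in both WT libraries. Siglech was counted 16 and 7 times in WT and 3 and 3 times in Sphk2 KO. The pooled, depth-scaled ratio was 0.234, with an exact 95% binomial interval of 0.0778 to 0.59 that covers counting error only. Tcf4, the factor these cells depend on, had 63.7 and 50.9 CPM in WT and 46 and 35.9 CPM in Sphk2 KO (log2 difference -0.49 ± 0.185 SE, edgeR adjusted p = 0.43). Irf4, a factor of dendritic cells, macrophages and lymphocytes, had 59.3 and 42.7 CPM in WT and 42.4 and 20.9 CPM in Sphk2 KO (-0.70 ± 0.313 SE, edgeR adjusted p = 0.475), with WT replicate 2 and Sphk2 KO replicate 1 nearly equal. Tcf4 and Irf4 are also expressed by B cells. Of 12 B cell markers 10 (83.3%, against 22.7% of all tested genes) were lower in each Sphk2 KO library than in each WT library. The 12 markers had a median log2 fold change of -0.67. Their part in the values of Tcf4, Irf4 and Siglech was not tested.

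Bst1, the surface enzyme CD157 of myeloid and stromal cells, was abundant and had 162 and 196 CPM in WT and 205 and 256 CPM in Sphk2 KO (log2 difference 0.37 ± 0.186 SE, edgeR adjusted p = 0.522). Its groups did not overlap, and its exons overlap those of Fbxl5 on the opposite strand, a gene at 1202 to 1818 CPM, which leaves its level uncertain because the strand setting of the counting is not given. Flt1, a receptor for vascular endothelial growth factors on endothelium and monocytes, was counted 52 and 48 times in WT and 46 and 49 times in Sphk2 KO. At 2.18 to 3.47 CPM its genotypes overlapped.

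The subsets were set side by side by their summed levels in each library. The monocyte genes summed to 2329 and 1426 CPM in WT and to 1479 and 1092 CPM in Sphk2 KO, the macrophage genes to 231 and 293 against 240.1 and 264 CPM, and the dendritic cell genes to 261 and 278 against 246 and 248 CPM. The lysosome genes summed to 3049 and 2473 CPM in WT and to 3359 and 2604 CPM in Sphk2 KO. Itgax alone gave 119 to 171 CPM of the dendritic cell sum, and Lyz2 alone 1567 to 2355 CPM of the lysosome sum. The monocyte sum was highest in WT replicate 1, where Fn1 alone gave 1172 CPM of it. The sum of the 14 other classical monocyte genes did not follow it, at 4744 and 4325 CPM in WT and 4830.4 and 4357 CPM in Sphk2 KO. That of the 10 other nonclassical genes was lowest in WT replicate 1 (2568 and 3128 against 3034 and 2934 CPM). Itgal gave 1102 and 1633 against 1626 and 1716 CPM of it. Gene by gene, 7 classical (50%) and 4 nonclassical genes (40%) were highest in WT replicate 1 and lowest in Sphk2 KO replicate 2. Among all tested genes 23.4% were. So were 75% of the tested T cell or EL4 markers, 50% of the B cell markers and 50% of the tested other conventional dendritic cell genes. The reverse held in 3 classical and 1 nonclassical genes (21.4% and 10%, against 20.8%). WT replicate 1 also had the lowest neutrophil and erythroid sums. The part of the neutrophil and erythroid shares in the monocyte values was not tested.

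**Figure D4:**
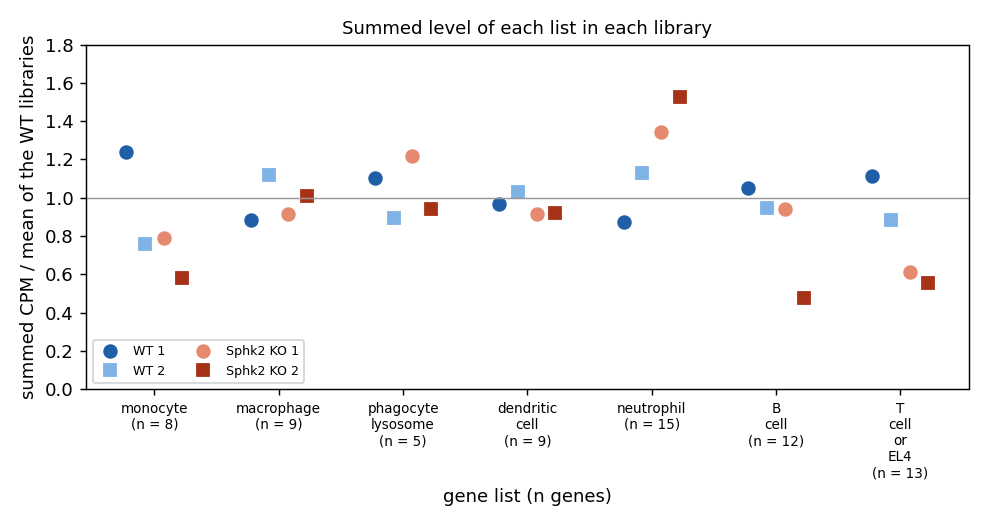
Summed CPM of each gene list in each library, divided by the mean of the WT libraries, with the number of genes in parentheses and points for single libraries. The monocyte, T cell or EL4 and B cell sums are highest in WT replicate 1 and lowest in Sphk2 KO replicate 2. The neutrophil sum runs the other way, and the macrophage, lysosome and dendritic cell sums show no such order. The B cell sum is low in Sphk2 KO replicate 2.

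Other genes of the same cell types, from lists outside the 37, gave 0 calls in edgeR with all 4 libraries and the count filter. The 17 of them named here include the 2 lowest edgeR p-values of each list, so calls among them partly follow from that choice. With no filter edgeR called 7 of the 17, against 2.07% of all genes. These were Tmem176b, Tmem176a, Pou2f2, Btla, Irf7, Dntt and Ptprs. With each library left out in turn, Tmem176b ran from -1.54 to -1.20 in log2, Pou2f2 from -1.13 to -0.47 and Irf7 from 0.27 to 1.16. Of 14 other classical monocyte genes 5 had an unadjusted p under 0.05, each lower in Sphk2 KO (35.7%, against 7.47% of all tested genes, the background for the lists that follow), and the list's median difference was -0.20 in log2. The paired membrane protein genes Tmem176b and Tmem176a were the clearest. Tmem176b had 17.2 and 17 CPM in WT and 7.42 and 5.92 CPM in Sphk2 KO (log2 difference -1.36 ± 0.227 SE, edgeR adjusted p = 0.138; DESeq2 adjusted p = 0.00462). Tmem176a had 11.3 and 10.6 CPM in WT and 5.92 and 3.29 CPM in Sphk2 KO (-1.27 ± 0.32 SE). Hp, the haptoglobin gene and the most abundant of that list, gave 0.28 (SE 0.245), and Ly6c2 gave -0.10 (SE 0.262).

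Of 10 other nonclassical monocyte genes 2 (20%) had an unadjusted p under 0.05, Pou2f2 at -0.77 (SE 0.219) and Ace, the angiotensin-converting enzyme, at -0.59 (SE 0.187). The median of the list was -0.31, with 9 negative values and 1 positive. Itgal, an integrin chain and the most abundant gene of the list, gave 0.29 (SE 0.291). Of 26 tested other macrophage genes 3 (11.5%) had such a p, all lower, and the median was -0.06. Apoe, the apolipoprotein of lipid-handling macrophages, gave -0.54 (SE 0.151), Pros1, a bridge between dying cells and MERTK, -0.82 (SE 0.315), and Mpeg1, a pore-forming protein, -0.13 (SE 0.216).

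Of 8 tested other peritoneal macrophage genes, Bhlhe41 had -0.90 (SE 0.385) and the abundant Bhlhe40 -0.30 (SE 0.141). In 18 tested other conventional dendritic cell genes the median was -0.37, and 3 (16.7%) had an unadjusted p under 0.05, all lower. Btla, an inhibitory receptor of dendritic cells and lymphocytes, gave -0.73 (SE 0.22), Dpp4 -0.77 (SE 0.252), and Wdfy4, which is needed for cross-presentation, 0.02 (SE 0.203). The other plasmacytoid genes had a median of -0.68 over 12 tested genes, 6 of them (50%) with an unadjusted p under 0.05 and all 6 lower. B cells also express several genes of this list, and the B cell markers had a median of -0.67, with 10 of 12 at such a p and lower; their part in these values was not tested. Ptprs, a surface phosphatase of plasmacytoid cells, had 19.8 and 14.7 CPM in WT and 10.1 and 7.34 CPM in Sphk2 KO (-0.99 ± 0.257 SE), and Dntt, the lymphoid terminal transferase, gave -2.76 (SE 0.513) at 0.178 to 1.37 CPM. Irf7, an interferon-induced factor, gave 0.65 (SE 0.289), with overlapping genotypes.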

How the data were processed

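Per the labels' protocols, poly(A) libraries were made from 250 ng of total RNA (RINe 9.7 to 10) with a directional kit. The authors deposited raw counts per Ensembl gene ID. Trim Galore, STAR, featureCounts, DESeq2 and GRCm39 are named in the submitters' processing notes, while the sources used here do not give versions, annotation, strand setting or the handling of multi-mapping reads. Gene IDs were matched to symbols (52083 of 55416), keeping the ID with most counts.

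The main test was edgeR's quasi-likelihood fit (version 4.0.16, R 4.3.3; filterByExpr, TMM, glmQLFit, glmQLFTest, genotype as the only term), with all 4 libraries and adjustment over all tested genes. The fit was tested on simulated data. Standard errors are the log2 fold change over the square root of F. An exact permutation test of 2 against 2 libraries cannot give a p under 0.333. Lengths, overlaps, shared 75-base sequences and gene chromosomes come from GENCODE M21 (GRCm38), through gene IDs. Alternatives were RLE factors, library size alone, DESeq2 1.42.0, no filter, a stricter filter (1 CPM in 2 libraries and 100 counts), a replicate block and leaving out each library. The members and lists were chosen with earlier results of these data known. Every member is described, with counts or CPM per library. Outside them, the 2 lowest edgeR p-values and the most abundant tested gene of each list are named, and Ly6c2 with the MDSC markers.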

Additional observations from a re-analysis of the deposited data

How the results depend on the processing

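The number of called members was 0 with RLE factors, with library size alone and with the stricter filter, 1 with DESeq2 and 8 with no filter. Leaving out a library gave 0 to 9. Over all genes the calls were 76 with DESeq2, 615 with no filter and 54 to 1061 with a library left out, against 18. With a replicate block 16 of 33 tested members and 2637 of 16566 tested genes were called. The deviations of the replicate 1 libraries of the 2 genotypes from their group means correlated at 0.438 across genes. The labels, however, do not say that numbers mark a shared batch. Library size alone moved the median of all genes to -0.17 and put 13 members below the WT range, against 7, and 31.8% of all tested genes, against 22.7%. Of the 33 tested members, 17 kept their direction in every alternative, and those that did not had main values of at most 0.26 in size. With library size alone Mrc1 gave -0.11, Mertk -0.06, C1qc -0.01, Apobec1 -0.01, Lyz2 -0.12, Itgax -0.02 and Wdfy4 -0.15. Clec9a gave 0.01 with RLE and 0.03 with DESeq2, which gave 0.00 for Cd68. With each library left out in turn, the log2 ranges that crossed 0 were Mrc1 -0.01 to 0.13, C1qc -0.20 to 0.51, Apobec1 -0.02 to 0.35, Clec9a -0.37 to 0.27, Itgax -0.09 to 0.42, Adgre1 -0.39 to 0.12, Mertk -0.11 to 0.49, C1qb -0.66 to 0.09, Cd68 -0.11 to 0.06, Lyz2 -0.26 to 0.32, C1qa -0.49 to 0.21, Ctsb -0.15 to 0.01, F5 -0.11 to 0.41, Cd209a -0.13 to 0.62, Wdfy4 -0.03 to 0.06, Maf -0.34 to 0.10 and Flt1 -0.51 to 0.09. The causes were not tested. With 2 libraries a genotype, each range rests on single libraries, and the 9 members under 5 CPM rest on few counts.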
